A study of Homo sapiens with 4 samples.

Results

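Excitation-contraction coupling genes were followed in 2 human tumour cell lines with and without depletion of SKP2, the substrate-recognition subunit of an SCF ubiquitin ligase. The set held 10 genes (RYR1, CACNA1S, CACNB1, CACNG1, ATP2A1, ATP2A2, CASQ2, STAC3, JPH2 and TRDN). They were picked by symbol for their place in the coupling apparatus, with earlier results of these data known. All 10 were found among the 39323 genes of the expression tables. RD and JR1 are established lines of fusion-negative rhabdomyosarcoma, a childhood tumour of cells committed to the skeletal muscle lineage that do not complete differentiation. The control cells of each line carried a lentivirus with a non-targeting hairpin (shSCR) and the depleted cells a lentivirus with a hairpin against human SKP2 (shSKP2.2, called shSKP2 here). The labels call the control genotype WT, although control and depleted cells both carried a vector. The depleted cells of both lines carried the same single hairpin, both lines were kept in serum-containing medium, and cells without a vector were not analysed here. Poly-A selected RNA was sequenced in 1 library per line and hairpin, 4 libraries in all. There were no replicates, so no difference below has an error or a test.

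In skeletal muscle an action potential runs along the surface membrane and down the transverse tubules, where the L-type calcium channel acts as a voltage sensor. The sensor opens the ryanodine receptor of the adjoining sarcoplasmic reticulum by direct contact, calcium leaves the reticulum and the myofibrils contract. Calsequestrin, anchored by triadin, holds calcium at the release sites, junctophilins tie both membranes together, and SERCA pumps return the calcium for relaxation. The apparatus is built late in muscle differentiation, when myoblasts become myotubes.

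Expression was given in TPM, transcript abundance relative to all transcripts of a library and scaled to transcript length, so that levels can be set side by side between genes within a library. The TPM keep no read numbers, so the depth behind each value is unknown. Differences were taken as log2 of the ratio of TPM + 1, which understates the change of genes at low TPM. A gene was tested when its mean over the 4 libraries was at least 1 TPM, which left 12985 genes, and it was called higher or lower at a log2 difference of at least 1. SKP2 itself stood at 92.8 TPM in control and 7.40 TPM in depleted RD cells, and at 46.5 TPM in control and 2.72 TPM in depleted JR1 cells. Of 6 skeletal muscle lineage markers, 5 stood at 1 TPM or more in every library, and MYF5 was listed at 0 in all 4. The summed TPM of this list ranged from 365 to 700 over the libraries. The 7 heart markers summed to between 15.6 and 20.9 TPM, mainly NKX2-5, with MYL7 at 0 throughout. Short structural RNAs took between 58.6% and 72.1% of the TPM, more with shSKP2 in each line, and the tested genes as a whole had a median log2 difference of -0.27 (RD) and -0.21 (JR1). Values relative to that median (centred), and values after removing these RNAs and rescaling, are given beside the genes and counts they bear on most. In bulk RNA, a change in the number of cells that express a gene and a change in its RNA per cell cannot be told apart.

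The set spanned a wide ladder of levels. ATP2A2, STAC3 and RYR1 held the 3 highest levels in every library, in that order. ATP2A1 came next in 3 libraries, and JPH2 stood above it in JR1 shSKP2. CACNB1 and JPH2 lay between 3.80 and 9.94 TPM. CACNA1S, CACNG1, TRDN and CASQ2 were all below 1 TPM in RD shSCR, RD shSKP2 and JR1 shSCR, and all above 1 TPM in JR1 shSKP2. Thus 6 of the 10 genes reached 1 TPM in each of the first 3 libraries and all 10 did so in JR1 shSKP2. With no replicates, the order of neighbouring genes in the ladder has no error attached. Of the 10 genes, 9 were tested, and CACNA1S fell short of the minimum. CACNG1, TRDN and CASQ2 passed the minimum only because of their level in JR1 shSKP2. Neither the number of tested genes called higher there nor the rank of these genes among tested genes is therefore read as support for anything.

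**Figure D1:**
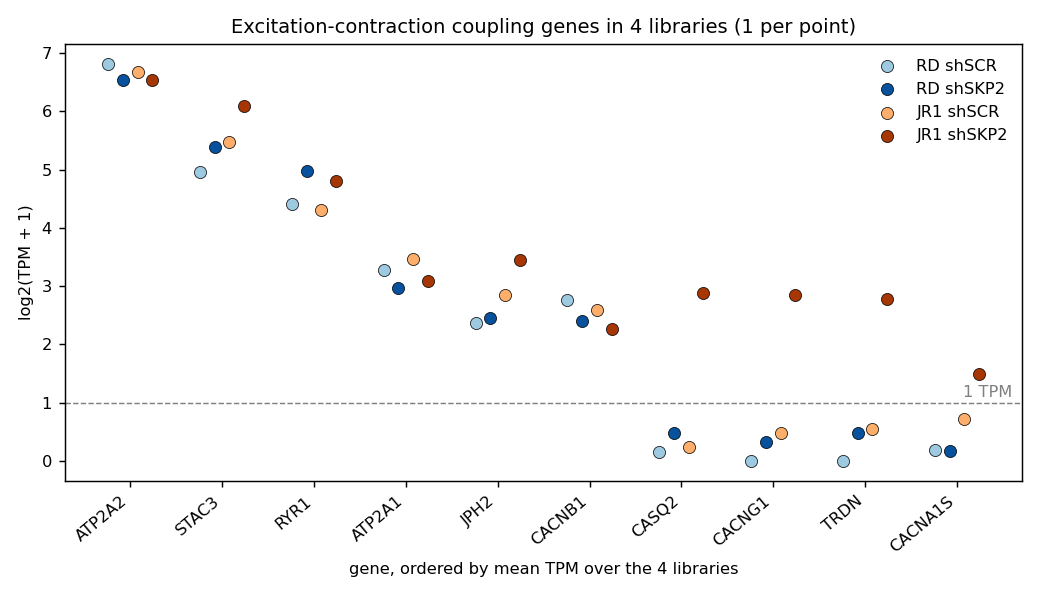
Level of each of the 10 genes as log2(TPM + 1), ordered by mean TPM, with 1 point per library for RD and JR1 with shSCR or shSKP2 and a dashed line at 1 TPM. CACNA1S, CACNG1, TRDN and CASQ2 cross the line in JR1 shSKP2 and lie under it in the other 3 libraries.

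The stretches before the transcription start are shown for those of the low genes that have an entry in the RefSeq promoter table (build GRCh38.p14), and for ATP2A1 as a contrast that was already above 6 TPM in every library. Each sequence holds the 250 bases before an annotated start, 5′ to 3′ on the gene's strand. Capitals mark E-boxes, the CANNTG motif bound by MYOD1 and MYOG, and in CASQ2 also the MEF2 consensus. CASQ2 is read from chr1:115768715-115768964 on the minus strand, TRDN from chr6:123636951-123637200 on the minus strand, CACNA1S from chr1:201112427-201112676 on the minus strand and the first start of ATP2A1 from chr16:28878238-28878487 on the plus strand.
CASQ2: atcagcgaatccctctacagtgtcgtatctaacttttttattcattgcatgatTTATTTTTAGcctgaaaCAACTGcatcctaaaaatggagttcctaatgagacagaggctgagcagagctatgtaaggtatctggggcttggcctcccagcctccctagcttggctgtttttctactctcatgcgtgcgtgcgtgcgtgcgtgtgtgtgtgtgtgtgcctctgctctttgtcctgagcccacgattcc
TRDN: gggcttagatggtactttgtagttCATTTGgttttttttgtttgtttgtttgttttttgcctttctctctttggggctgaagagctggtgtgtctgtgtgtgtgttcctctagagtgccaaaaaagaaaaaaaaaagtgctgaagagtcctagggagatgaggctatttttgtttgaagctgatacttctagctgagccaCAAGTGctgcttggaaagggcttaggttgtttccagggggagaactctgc
CACNA1S: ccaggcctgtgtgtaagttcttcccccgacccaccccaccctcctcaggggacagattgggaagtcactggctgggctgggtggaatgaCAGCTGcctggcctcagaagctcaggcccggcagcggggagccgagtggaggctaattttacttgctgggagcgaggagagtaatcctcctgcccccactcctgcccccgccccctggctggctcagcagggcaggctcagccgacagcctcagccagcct
ATP2A1: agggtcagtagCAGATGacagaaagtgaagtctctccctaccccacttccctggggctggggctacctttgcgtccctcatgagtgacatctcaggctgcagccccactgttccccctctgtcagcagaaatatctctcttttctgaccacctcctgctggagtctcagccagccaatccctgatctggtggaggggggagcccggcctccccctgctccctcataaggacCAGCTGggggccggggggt

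E-boxes were searched on both strands, and the table matched 8 of the 10 genes. CACNG1 and STAC3 had no entry. These 8 genes had 10 promoters in the table, and an E-box lay in 7 of the 10, against 61.8% of all 35116 promoters. CAGCTG, the form preferred by MYOD1, began 161 bases before the start in CACNA1S and 19 bases before the first start of ATP2A1, so 2 of the 10 promoters held it, against 14.0% of all promoters. CASQ2 held a CAACTG at 180 bases and a MEF2 consensus at 197 bases before the start, and TRDN held CATTTG at 226 bases and CAAGTG at 50 bases. The MEF2 consensus was found in 2 of the 10 promoters, 1 of CASQ2 and 1 of ATP2A2, against 2.80% of all promoters. RYR1 and JPH2 held no match to either motif in this window. These matches describe letters in a short window and say nothing of binding.

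The voltage sensor is the L-type channel complex of the transverse tubule. CACNA1S (chr1:201039509-201112453, GRCh38), the pore and voltage-sensing subunit, stood at 0.14 TPM in RD shSCR, 0.13 in RD shSKP2, 0.64 in JR1 shSCR and 1.80 in JR1 shSKP2. Its log2 difference between hairpins was -0.01 in RD and 0.77 in JR1. The JR1 value was short of the limit as deposited and past it, at 1.36, after the short structural RNAs were removed. In RD the sign of the difference turned, to 0.26 when centred and 0.09 with that rescaling.

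CACNG1 (chr17:67044554-67056797), the gamma subunit of the muscle channel, was listed at 0 TPM in RD shSCR and stood at 0.25 in RD shSKP2, 0.40 in JR1 shSCR and 6.23 in JR1 shSKP2. The last library stood alone, with the other 3 at or below 0.40 TPM. CACNG1 rose in JR1 by a log2 difference of 2.37, a TPM ratio of 15.6, and 34 of the 12985 tested genes had a higher value. In RD its difference was 0.32. CACNG1 passed the minimum only through JR1 shSKP2, so its rank in JR1 is a description only.

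CACNB1 (chr17:39173453-39197669) encodes the beta subunit, which carries the channel to the membrane. It stood at 5.77 TPM in RD shSCR, 4.29 in RD shSKP2, 5.02 in JR1 shSCR and 3.80 in JR1 shSKP2. The depleted library was the lower in both lines, by log2 differences of -0.36 in RD and -0.33 in JR1, and relative to the median tested gene it was at -0.09 in RD and -0.11 in JR1. STAC3 (chr12:57243453-57251188), an adaptor needed for the sensor to reach the membrane and act on the ryanodine receptor, stood at 30.3 TPM in RD shSCR, 41.0 in RD shSKP2, 43.7 in JR1 shSCR and 66.8 in JR1 shSKP2. The depleted library was the higher in each line, by 0.43 in RD and 0.60 in JR1, and neither reached the limit. STAC3 was thus far more abundant per length than the pore subunit it serves. The STAC3 to CACNA1S ratio of TPM was 216 in RD shSCR and 316 in RD shSKP2, and 68.2 in JR1 shSCR and 37.1 in JR1 shSKP2. The size of the RD ratios is uncertain, since CACNA1S stood at 0.14 and 0.13 TPM there.

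RYR1 (chr19:38433691-38587564) is the calcium release channel of skeletal muscle reticulum. Its level was 20.2 TPM in RD shSCR, 30.6 in RD shSKP2, 18.8 in JR1 shSCR and 26.8 in JR1 shSKP2. Both depleted libraries lay above both control libraries, with log2 differences of 0.58 in RD and 0.49 in JR1. RYR1 had the highest difference of the set in RD, where 423 tested genes lay above it, and it passed the limit there at 1.01 after the short structural RNAs were removed. The release channel was abundant where the sensor pore was scarce. The RYR1 to CACNA1S ratio of TPM was 144 in RD shSCR and 29.4 in JR1 shSCR, and it was 235 in RD shSKP2 and 14.9 in JR1 shSKP2. Such ratios within a library do not depend on the scaling between libraries. In RD they rest on CACNA1S levels of 0.14 and 0.13 TPM, at unknown depth, so their size is uncertain.

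Both members of the reticulum lumen and triad were below 1 TPM in 3 libraries and near 6 TPM in JR1 shSKP2. CASQ2 (chr1:115700021-115768714), the calsequestrin of heart and slow muscle that stores calcium at the release sites, stood at 0.11 TPM in RD shSCR, 0.40 in RD shSKP2, 0.18 in JR1 shSCR and 6.39 in JR1 shSKP2. It rose in JR1 by a log2 difference of 2.65, a TPM ratio of 35.5, with 26 tested genes above it. TRDN (chr6:123216339-123636950), triadin, anchors calsequestrin to the ryanodine receptor. TRDN was listed at 0 TPM in RD shSCR and stood at 0.40 in RD shSKP2, 0.47 in JR1 shSCR and 5.84 in JR1 shSKP2. It rose in JR1 by 2.22, a TPM ratio of 12.4, with 39 tested genes above it. CASQ2 and TRDN passed the minimum only through JR1 shSKP2, so both ranks are descriptions only. In RD the differences were 0.33 for CASQ2 and 0.49 for TRDN, and RD shSKP2 was below 1 TPM for both genes. The RD values depended on the added constant, since at 0.1 TPM in place of 1 they were 1.25 for CASQ2, 2.32 for TRDN and 1.81 for CACNG1, on levels of at most 0.40 TPM.

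JPH2 (chr20:44106590-44187946), a junctophilin that holds the reticulum close to the surface membrane, stood at 4.15 TPM in RD shSCR, 4.46 in RD shSKP2, 6.22 in JR1 shSCR and 9.94 in JR1 shSKP2. Its log2 difference was 0.08 in RD and 0.60 in JR1, under the limit in both. The JR1 libraries were both above the RD libraries.

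The SERCA pumps had small differences between hairpins. ATP2A2 (chr12:110281247-110351093), the pump of slow muscle, heart and non-muscle cells, had 112 TPM in RD shSCR, 91.7 in RD shSKP2, 101 in JR1 shSCR and 92.0 in JR1 shSKP2. ATP2A1 (chr16:28878488-28904466), the pump of fast skeletal muscle, had 8.66 TPM in RD shSCR, 6.87 in RD shSKP2, 10.1 in JR1 shSCR and 7.55 in JR1 shSKP2. The depleted library was the lower in each line for both pumps, with log2 differences of -0.28 and -0.14 for ATP2A2 and -0.30 and -0.38 for ATP2A1 in RD and JR1. These values lay near that of the middle tested gene, and signs depended on the scaling. After removal of the short structural RNAs ATP2A2 was at 0.14 in RD and 0.12 in JR1, and ATP2A1 was at 0.08 in RD and -0.15 in JR1, and ATP2A2 was at 0.08 in JR1 when centred. The ratio of ATP2A2 to RYR1, pump over release channel, was 5.54 in RD shSCR and 5.39 in JR1 shSCR, against 3.0 in RD shSKP2 and 3.43 in JR1 shSKP2.

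Across the set, the depleted cells of RD had 0 genes called higher and 0 called lower, where 1.08% of all tested genes were called higher and 7.37% lower. The median log2 difference of the 10 genes in RD was 0.20, against -0.27 over all tested genes. In JR1 3 genes were called higher, CACNG1, TRDN and CASQ2, and 0 lower, where 1.78% of tested genes were called higher and 9.05% lower. The median of the 10 genes in JR1 was 0.60, against -0.21 over all tested genes. Differences above 0 were seen for 6 of 10 genes in RD, where 24.6% of tested genes were above 0, and for 7 of 10 in JR1, where 30.9% were. After removal of the short structural RNAs the RD count became 2 higher (RYR1 and TRDN) and the JR1 count 4 higher, with CACNA1S added, where 4.40% of tested genes in RD and 4.91% in JR1 were called higher at that setting. Relative to the median tested gene, 7 of 10 genes in RD and 8 of 10 in JR1 lay above it. Since the set was chosen with earlier results of these data known, these counts and medians are descriptions only. The summed TPM of the set was 181 in RD shSCR, 180.2 in RD shSKP2, 187 in JR1 shSCR and 227 in JR1 shSKP2.

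The JR1 difference exceeded the RD difference most for CASQ2, by 2.31 on the log2 scale, followed by CACNG1 at 2.05 and TRDN at 1.73. For CACNA1S this excess was 0.78 and for JPH2 0.52. STAC3, ATP2A2, CACNB1, ATP2A1 and RYR1 lay between -0.09 and 0.18, so these 5 genes had near equal values in both lines. With 1 library per group, none of these excesses could be tested.

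The members of each gene family were compared within a library, where the scaling cancels. RYR1 made up between 99.7% and 99.8% of the TPM of the 3 ryanodine receptor genes in every library. ATP2A2 made up between 87.2% and 90.7% of the TPM of the 3 SERCA genes, and ATP2A3, the pump of blood and epithelial cells, went from 4.56% to 3.43% in RD and from 4.09% to 1.91% in JR1. The pump family thus kept its dominant form in all 4 libraries. STAC3 made up 94.7% of the STAC family in RD shSCR and 98.6% or more in the other libraries.

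The calsequestrins and the sensor pores showed larger shifts in share, on low levels. CASQ2 made up 50.0% of calsequestrin TPM in RD shSCR, 40.8% in RD shSKP2, 17.6% in JR1 shSCR and 79.8% in JR1 shSKP2. The family totals behind the first 3 shares were only 0.22, 0.98 and 1.02 TPM, and the last was 8.01 TPM. CASQ1, the fast muscle calsequestrin, reached 1.62 TPM in JR1 shSKP2. CACNA1S made up 11.7% and 18.3% of its family of 3 pore genes in RD shSCR and RD shSKP2, where CACNA1C, the pore of heart and smooth muscle, stood at 1.04 and 0.57 TPM. In JR1 the CACNA1S share was 94.1% with shSCR and 98.4% with shSKP2, with CACNA1C at 0.04 and 0.02 TPM. The lines thus differed in which pore gene had the higher level, in control and in depleted cells alike. CACNB3 exceeded CACNB1 in every library, with CACNB1 at 30.7% to 39.8% of the beta subunit family. JPH2 made up 59.5%, 62.1%, 77.1% and 65.3% of the junctophilins in RD shSCR, RD shSKP2, JR1 shSCR and JR1 shSKP2.

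**Figure D2:**
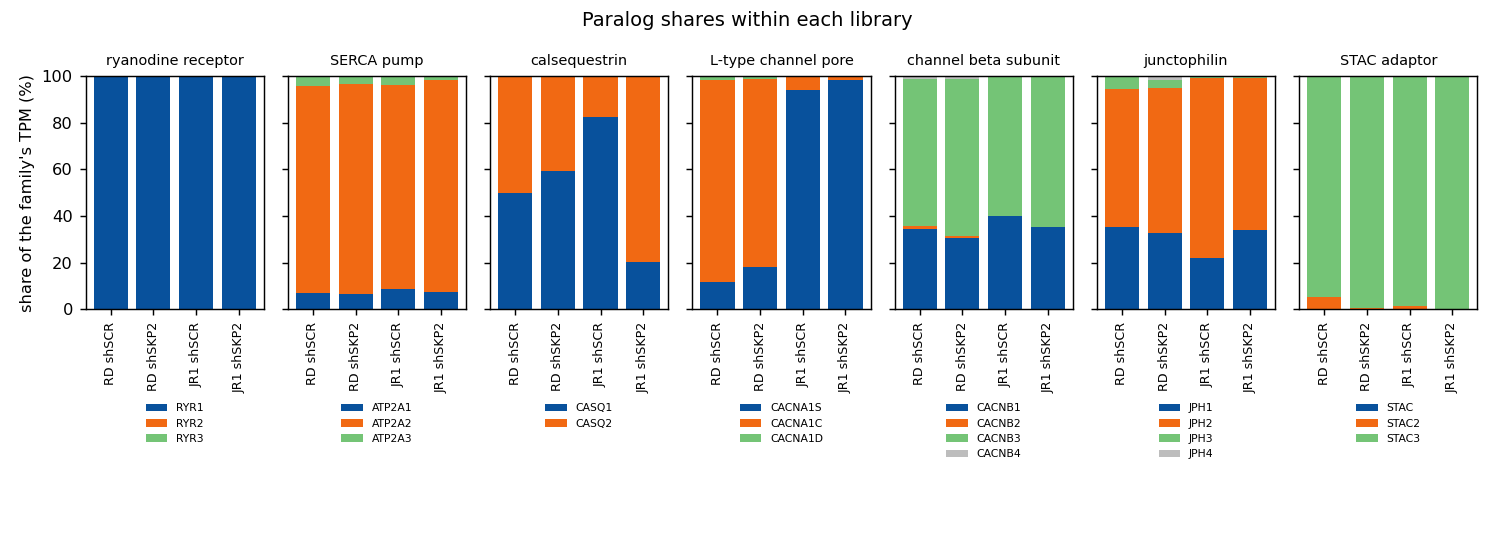
Share of each family's TPM, in percent, taken by each paralog in each library, as stacked bars from 0 to 100. RYR1 and ATP2A2 dominate their families in every library, while CASQ2 and CACNA1S take shares that differ between lines and hairpins.

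The lines were then set against each other with the same hairpin. These differences use the same 4 libraries as the differences between hairpins, so they are not separate evidence. With shSCR, 0 of the 10 genes were called higher in RD and 0 lower, where 6.5% of tested genes were called higher in RD and 3.44% lower. The median of the set was -0.34 on the log2 scale, RD over JR1, against 0.23 over all tested genes. TRDN at -0.56, CACNA1S at -0.52, STAC3 at -0.52, CACNG1 at -0.49 and JPH2 at -0.49 were the lowest in RD control cells relative to JR1 control cells. After removal of the short structural RNAs 3 of the genes were called lower in RD, CACNA1S at -1.12, CACNG1 at -1.13 and TRDN at -1.26, where 6.99% of tested genes were called lower at that setting. The 3 genes that were higher in RD as deposited turned when centred, RYR1 from 0.10 to -0.14, CACNB1 from 0.17 to -0.06 and ATP2A2 from 0.14 to -0.09, and were below 0 after the removal too.

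With shSKP2, 0 genes were called higher in RD and 5 lower, where 5.39% of tested genes were called higher and 2.7% lower. The 5 genes were CACNG1 at -2.53, CASQ2 at -2.40, TRDN at -2.29, CACNA1S at -1.31 and JPH2 at -1.0 (log2, RD over JR1). The same 3 genes that passed the minimum only through JR1 shSKP2 are among them, and CACNA1S was not tested, so the count is given as a description. RYR1 at 0.18, CACNB1 at 0.14, ATP2A2 at -0.00 and ATP2A1 at -0.12 were near equal between the depleted lines, and CACNB1 turned to -0.03 when centred. The median of the set was -0.85, against 0.17 over all tested genes.

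Other genes of the same apparatus were taken from a list of 51 genes written from general knowledge, of which all 51 were found and 28 were tested. In RD 2 of these were called higher and 1 lower, and in JR1 5 were called higher and 2 lower, set against the percentages of tested genes given above. The median of the 28 was -0.09 in RD and 0.21 in JR1. After removal of the short structural RNAs the minimum was applied again, which left 15217 tested genes. Of the list of 51, 7 were then higher and 1 lower in RD, and 9 higher and 3 lower in JR1. These counts are not limited to the 28. CASQ1, at 1.18, is among the higher in RD, and the 1 lower in RD lies outside the 28. The 3 lower in JR1 also include a gene outside the 28. At that setting 4.40% of tested genes were called higher and 3.45% lower in RD, and 4.91% higher and 7.49% lower in JR1. As deposited, the genes of the 28 called higher in both lines were HRC and MRLN. HRC, the histidine-rich calcium-binding protein of the reticulum lumen that binds triadin, stood at 3.22 TPM in RD shSCR, 8.44 in RD shSKP2, 3.84 in JR1 shSCR and 20.5 in JR1 shSKP2. MRLN encodes myoregulin, a small peptide that inhibits SERCA in skeletal muscle, and stood at 2.91, 8.54, 3.68 and 12.8 TPM in the same order. Both were past the limit in both lines under both scalings. SELENON, a selenoprotein of the reticulum linked to congenital myopathy, was the only one of the 28 called lower in both lines as deposited, with 38.8 TPM in RD shSCR, 17.1 in RD shSKP2, 20.5 in JR1 shSCR and 7.49 in JR1 shSKP2. Its call in RD ended under both scalings, with a log2 difference of -1.14 as deposited, -0.87 centred and -0.75 after the removal.

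In JR1 and not in RD, as deposited, ATP2B1, a surface membrane calcium pump, was called higher at 1.02 (0.87 in RD), as were SLC8A3, a sodium-calcium exchanger, at 1.17 (0.47 in RD) and JPH1, the skeletal muscle junctophilin, at 1.15 (-0.05 in RD). ATP2B1 was past the limit in RD too under both scalings, at 1.14 centred and 1.305 after the removal, and JPH1 in RD turned to 0.22 and 0.31. FKBP1B, a ryanodine receptor stabiliser, was called lower in JR1 at -1.16 and was at -0.22 in RD. When centred it was at -0.94 in JR1, under the limit, and at 0.05 in RD, and after the removal at -1.45 in JR1 and 0.08 in RD. Being past the limit in one line only was not tested as a difference between lines. The muscle lineage markers had mixed directions. MYOG stood at 31.6 TPM in RD shSCR, 58.4 in RD shSKP2, 54.0 in JR1 shSCR and 107 in JR1 shSKP2, and MYOD1 at 87.0, 93.8, 101 and 131 TPM in the same order. CHRNA1, a subunit of the muscle acetylcholine receptor, stood at 196, 314, 284 and 425 TPM, and DES, desmin, at 39.3, 43.4, 51.3 and 35.97 TPM. PAX7, the regulator of muscle stem cells, fell in both lines, with 10.8, 3.36, 4.84 and 1.16 TPM and log2 differences of -1.43 in RD and -1.43 in JR1. The part of these markers in the differences of the set was not tested.

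**Figure D3:**
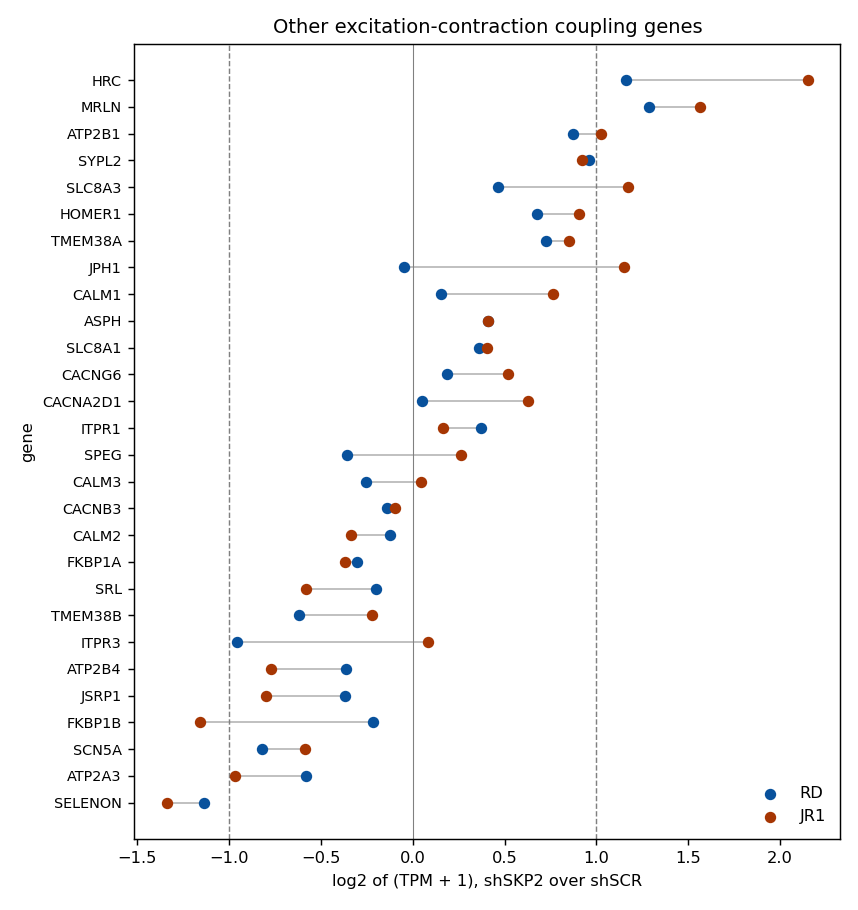
Log2 difference of TPM + 1, shSKP2 over shSCR, for the tested genes of the list of other excitation-contraction coupling genes, with points for RD and JR1. HRC and MRLN lie above 1 in both lines and SELENON lies below -1 in both.

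Other tested genes were ranked by how closely their profile over the 4 libraries followed each of the 3 members of widest range, as the largest absolute difference of log2(TPM + 1) after centring each gene on its mean. For CACNG1, whose range was 2.85, the closest were TRDN at 0.13, KLHL31 at 0.20 and PGM5 at 0.25. The closest to TRDN, with a range of 2.77, were CACNG1 at 0.13, APOBEC2 at 0.15 and FATE1 at 0.24. The closest to CASQ2, with a range of 2.74, were GJA5 at 0.16, SCARNA1 at 0.18 and CACNG1 at 0.27. CACNG1 and TRDN were thus each other's nearest profile. With 4 libraries in which 1 stands apart, a gene high in JR1 shSKP2 alone by a like amount will rank close.

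Reads of a gene and of an entry that overlaps it can be split between them, and how strand was used in counting is not given in the sources used here. Of the 10 genes, 5 shared their span with 9 other entries. LOC107985290 within RYR1 stood at 1.45, 4.19, 0.88 and 2.95 TPM in RD shSCR, RD shSKP2, JR1 shSCR and JR1 shSKP2, higher with shSKP2 in each line as RYR1 was. RABEP2, which overlaps ATP2A1, stood at 8.80, 6.33, 5.50 and 3.83 TPM, and ATP2A1-AS1 at 3.0, 2.21, 1.56 and 1.69 TPM, in the same order. TRDN-AS1 was listed at 0 in all 4 libraries.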

How the data were processed

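Poly-A selected RNA was measured in cells of the RD and JR1 lines carrying either hairpin, 1 library per line and hairpin, with groups taken from the sample titles. The authors made directional libraries, read them as pairs of 150 bases, and deposited TPM per gene. The submitters' processing notes name STAR 2.7.9a, RSEM 1.3.2 and GRCh38, and the annotation release is not given in the sources used here. Values are written to 2 decimals and each library totals 1e+06 TPM, so no depth is kept, and neither counting error nor replicate error could be given.

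Differences were log2 of the ratio of TPM + 1. A gene entered when its 4 libraries averaged 1 TPM or more, and a gene was called at a log2 difference of at least 1. No p-values were computed. Members were matched by symbol. The members and the gene lists were chosen with earlier results of these data known. Besides the members, the text names the called genes and family paralogs of the list of 51 (1 further gene is not reported here), SKP2 and marker genes, and, for the 3 members of widest range, the 3 closest profiles. The overlapping entries were named after their values were seen. ITPR3, CALM3 and SPEG are named because the lines differed in sign.

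Alternatives were a pseudocount of 0.1 TPM, centring on the median of tested genes, removal of 3015 short structural RNA genes by symbol with rescaling to the same total, a limit of 1.5-fold, all genes above 0 TPM and a minimum mean of 5 TPM. Promoter sequences came from RefSeq (GRCh38.p14), with motifs searched in 250 bases before each start. Centred calls were checked on simulated data in which only genes well above the minimum were raised. That check does not cover genes at low TPM or calls on values as deposited. The scripts ran in Python 3.11.15 (numpy 2.4.6, matplotlib 3.10.9, pandas 2.3.3). The other assays of the study were not used here.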

Additional observations from a re-analysis of the deposited data

Results flagged for a closer look

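In 5 of the 38 genes considered (the 10 members and the 28 tested genes of the other list) the sign of the difference between hairpins was opposite in RD and JR1. The share of all tested genes with opposite signs is not given here, so this count is a description only. With 1 library per group none of these differences between lines was tested. Among the members this was CACNA1S, at -0.01 in RD and 0.77 in JR1, a JR1 excess of 0.78 on the log2 scale. The RD sign of CACNA1S rests on 0.14 TPM with shSCR against 0.13 with shSKP2, in values written to 2 decimals. CACNA1S also fell short of the minimum for tested genes. JPH1, the junctophilin of skeletal muscle, was at -0.05 in RD and 1.15 in JR1, an excess of 1.20. ITPR3, an inositol trisphosphate receptor of the reticulum, was at -0.96 in RD and 0.08 in JR1, an excess of 1.04. SPEG, a kinase of the triad, was at -0.36 in RD and 0.26 in JR1, an excess of 0.62. CALM3, one of the calmodulin genes, was at -0.26 in RD and 0.04 in JR1, an excess of 0.30. After centring on the median tested gene, ITPR3 and SPEG, 2 of the 5, still had opposite signs. CACNA1S then had 1 sign in both lines. Among the members ATP2A2 took opposite signs when centred, at -0.01 in RD and 0.08 in JR1.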

How the results depend on the processing

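Each comparison was made within a line or a hairpin, with 1 library per group and no test. A fit over both lines with the line as a block was not run, and no library could be left out. With a pseudocount of 0.1 TPM the median difference of the 10 members was 0.27 in RD, 0.64 in JR1, -0.47 for RD over JR1 with shSCR and -0.92 with shSKP2. At this setting 3 members were higher in RD, 3 lower in RD than JR1 with shSCR, and 2 of the other list lower in RD. Of all tested genes, 2.15% were then called higher and 10.9% lower in RD. For RD over JR1 with shSCR, 4.71% were called lower. Centred on the median of tested genes, the medians of the 10 members were 0.47, 0.82, -0.57 and -1.02 in the same order. The other list then had 4 higher and 0 lower in RD and 8 higher and 1 lower in JR1. Of all tested genes, 2.09% were higher and 3.53% lower in RD, and 2.99% higher and 5.47% lower in JR1. With short structural RNAs removed the medians of the 10 members were 0.67, 0.89, -0.67 and -1.05. At this setting 2 members were higher in RD, 3 lower in RD than JR1 with shSCR, and 7 (RD) and 9 (JR1) of the other list higher. At a limit of 1.5-fold 6 members were higher in JR1, and the other list had 6 higher and 4 lower in RD and 10 higher and 5 lower in JR1, where 3.20% of tested genes were higher and 23.2% lower in RD and 5.31% higher and 23.4% lower in JR1. The direction of all 4 medians held with the other pseudocount and under both scalings. Of the 20 member differences between hairpins, 0 turned sign with the pseudocount, 2 with centring (CACNA1S in RD and ATP2A2 in JR1) and 4 with the removal (CACNA1S, ATP2A1 and ATP2A2 in RD and ATP2A2 in JR1). Unknown depth limits most the genes listed below 1 TPM.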

Other observations

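Several genes of the reticulum membrane and junction that did not reach the limit in either line as deposited had their higher value with shSKP2 in both. SYPL2, which encodes mitsugumin 29 of the triad junction, stood at 1.80 TPM in RD shSCR, 4.44 in RD shSKP2, 4.78 in JR1 shSCR and 9.93 in JR1 shSKP2, with log2 differences of 0.96 in RD and 0.92 in JR1. TMEM38A, the TRIC-A channel that carries potassium counter-current during calcium release, stood at 3.67, 6.73, 7.15 and 13.7 TPM in the same order, with differences of 0.73 and 0.85. Its paralog TMEM38B was more abundant and went the other way as deposited, with differences of -0.62 in RD and -0.22 in JR1. TMEM38B stood at 31.8, 20.35, 38.4 and 32.8 TPM, and its JR1 difference turned to 0.04 after removal of the short structural RNAs. JSRP1, a reticulum protein that binds the voltage sensor and calsequestrin, had its higher value with shSCR in both lines as deposited, at 51.5, 39.6, 77.1 and 44.0 TPM, with differences of -0.37 and -0.80, and its RD value turned to 0.04 after removal of the short structural RNAs. CACNA2D1, the extracellular alpha-2/delta subunit of the channel, stood at 26.4, 27.4, 16.01 and 25.3 TPM, with differences of 0.05 and 0.63. None of these genes was called as deposited. SYPL2 was past the limit in both lines when centred (1.23 in RD and 1.13 in JR1) and after the removal (1.52 and 1.26), and TMEM38A after the removal (1.21 and 1.17) and, in JR1, when centred (1.07). No replicate stands behind any of these values, and all of these genes were named after their values were seen.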
